A study of Mus musculus with 11 samples.

Results

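The 6 solute carrier genes described in alveolar macrophages of newborn mice were 4 sodium/proton exchangers (Slc9a4, Slc9a7, Slc9a8 and Slc9a9) and 2 organic cation transporters (Slc22a4 and Slc22a5). They were taken by symbol from a table of 57180 Ensembl identifiers, and all 6 were among the 19948 genes that passed the expression filter. The genes were picked with the response to high oxygen already known, so their hyperoxia values are given as a description, and no p-value is given for them. Bulk RNA-seq was done on macrophages sorted by flow cytometry from lung homogenates of wild-type C57BL/6 pups on postnatal day 7. The groups were normoxia males (NM, 3 libraries), normoxia females (NF, 3), hyperoxia males (HM, 2, numbered 2 and 3) and hyperoxia females (HF, 3), and the hyperoxia pups had breathed 95% oxygen from postnatal day 1 to day 5. Libraries are named by group and number (HM3 is the hyperoxia male library that the labels number 3). Whether replicates are separate pups or pools is not stated in the labels, so errors and p-values reflect only how far these libraries spread, and part of that may be technical.

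Sodium/proton exchangers carry sodium ions and protons in opposite directions across a membrane and so set the pH and volume of the cell or of an organelle. The product of Slc9a4, NHE4, works at the plasma membrane and is best known from gastric and kidney epithelium. NHE7 (Slc9a7), NHE8 (Slc9a8) and NHE9 (Slc9a9) sit mainly on membranes of the Golgi and endosomes, compartments that a proton pump acidifies. Slc22a4 encodes OCTN1, which takes up ergothioneine, a dietary antioxidant, and some organic cations. Slc22a5 encodes OCTN2, the sodium-driven importer of carnitine, which cells need to bring long-chain fatty acids into mitochondria. Alveolar macrophages live in the air spaces, take up surfactant lipid and digest it in acidic lysosomes.

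The libraries held 18087948 to 32579468 counts, and 26856 to 35530 genes had at least 1 count. The 4 libraries with most genes detected were NM3, NF3, HF2 and HF3, and values for the 6 genes are given with and without them where they matter. Levels are given as CPM (read counts relative to the TMM-scaled library size), and 3 counts, the limit that a count of 0 allows, correspond to 0.0880 to 0.160 CPM. All 15 markers fixed for alveolar macrophages, such as Siglecf, Marco, Pparg and Car4, were measured, and they summed to 4979 to 8780 CPM in normoxia and 5512 to 7846 CPM in hyperoxia. Of these 15 markers 5 fell with hyperoxia and none rose, where 0.165% of all genes tested fell. They were Fabp1 (-2.47), Fabp4 (-1.53), Cidec (-1.35), Krt79 (-1.32) and Ear1 (-0.98, log2 fold changes).

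Slc9a4 stood lower in every hyperoxia library than in any normoxia library. It measured 24.6, 28.5 and 22.4 CPM in NM1 to NM3 and 31.1, 28.2 and 25.1 CPM in NF1 to NF3. After hyperoxia it measured 9.70 and 8.49 CPM in HM2 and HM3 and 13.9, 6.45 and 7.62 CPM in HF1 to HF3. The highest hyperoxia library, HF1, still lay well under the lowest normoxia library, NM3. Group means were 25.2 ± 3.11 and 28.2 ± 3.005 CPM in normoxia males and females (SD, n = 3 each). In hyperoxia they were 9.09 ± 0.851 CPM in males (SD, n = 2) and 9.31 ± 3.98 CPM in females (SD, n = 3). The log2 fold change of hyperoxia over normoxia, averaged over the sexes, was -1.53 ± 0.19 (SE), or 0.345-fold. It was -1.47 ± 0.29 in males and -1.60 ± 0.25 in females. Libraries of the 2 oxygen groups separated in this direction for 79 of the 19948 genes tested (0.396%).

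Slc22a4 stood higher in every hyperoxia library, from a low level. Its counts were 21, 24 and 36 in NM1 to NM3 and 28, 27 and 54 in NF1 to NF3, or 1.12, 0.99998, 1.86, 0.891, 0.961 and 2.33 CPM. After hyperoxia the counts were 91 and 143 in HM2 and HM3 and 142, 140 and 147 in HF1 to HF3, or 3.59, 5.35, 4.71, 4.11 and 5.05 CPM. The highest normoxia values were those of NF3 and NM3, and the lowest hyperoxia value was that of HM2. Group means were 1.33 ± 0.464 and 1.39 ± 0.810 CPM in normoxia males and females (SD, n = 3 each). In hyperoxia they were 4.47 ± 1.25 CPM in males (SD, n = 2) and 4.62 ± 0.476 CPM in females (SD, n = 3). The log2 fold change averaged over the sexes was 1.75 ± 0.30 (SE), or 3.35-fold, with 1.75 ± 0.44 in males and 1.74 ± 0.41 in females. Libraries separated in this direction for 351 genes (1.76%).

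Of the 6 genes, Slc9a4 and Slc22a4 were among the 141 called in edgeR's quasi-likelihood test of hyperoxia over both sexes, where 0.707% of all genes (108 higher, 0.541%, and 33 lower, 0.165%) were called at a Benjamini-Hochberg adjusted p under 0.05. In males alone 0.0401% of genes were called, with 0 of the 6 among them. In females alone 0.0401% were called, with Slc9a4 among them. With the replicate number as a block, the log2 fold changes in females were -1.64 for Slc9a4 and 1.85 for Slc22a4. Which of the 6 were called in males alone or in females alone changed with the settings. As the 6 genes were chosen with this contrast known, nothing is read from these calls or from whether they hold under other settings. As a description, the log2 fold change over both sexes ran from -1.74 to -1.43 for Slc9a4 and from 1.60 to 2.03 for Slc22a4 with each of the 11 libraries left out in turn. With NM3, NF3, HF2 and HF3 all left out, the value was -1.32 for Slc9a4 and 2.21 for Slc22a4, although HF1 then stood alone for the hyperoxia females. Among those 4 libraries alone, Slc9a4 measured 22.4 and 25.1 CPM in NM3 and NF3 against 6.45 and 7.62 CPM in HF2 and HF3. There Slc22a4 measured 1.86 and 2.33 against 4.11 and 5.05 CPM.

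**Figure D1:**
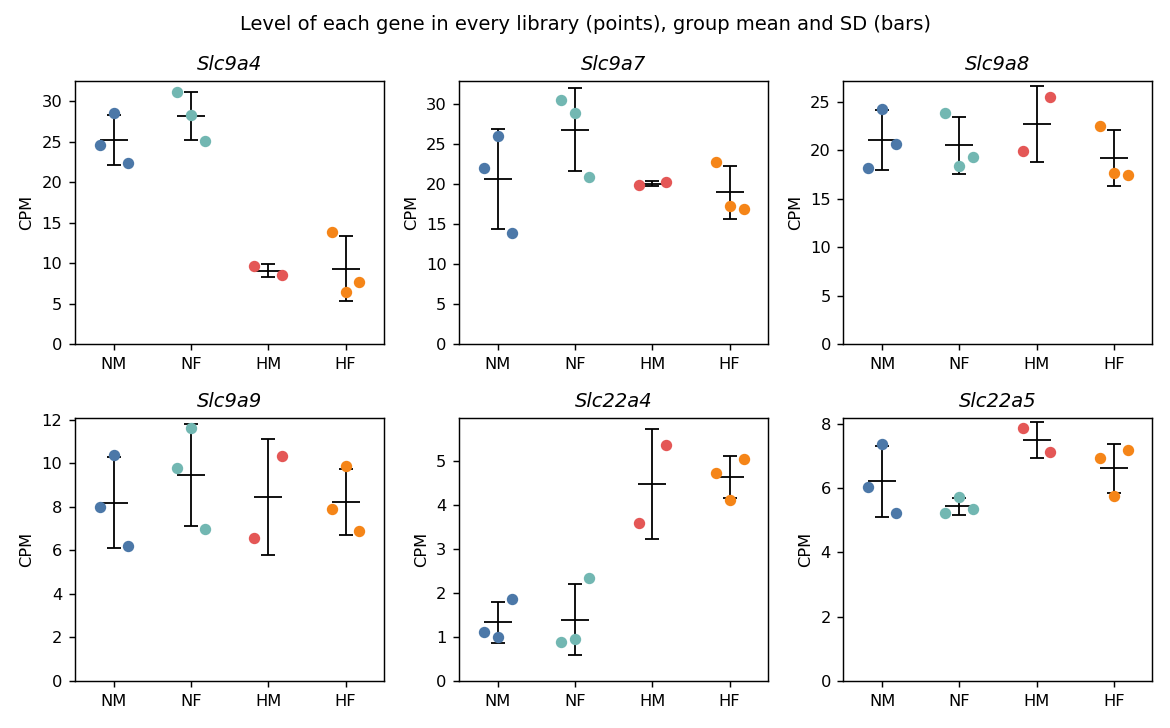
CPM (vertical axes, from 0) of the 6 genes in each of the 11 libraries (points), by group on the horizontal axes (NM and NF, normoxia males and females; HM and HF, hyperoxia males and females), with the group mean and SD as bars. The hyperoxia points of Slc9a4 (6.45 to 13.9 CPM) lie under all its normoxia points (22.4 to 31.1 CPM) and those of Slc22a4 (3.59 to 5.35 CPM) over all its normoxia points (0.891 to 2.33 CPM), while the oxygen groups overlap for the other 4 genes.

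The exchangers of inner membranes had overlapping oxygen groups. Slc9a7 measured 21.9, 26.0 and 13.8 CPM in NM1 to NM3 and 30.5, 28.9 and 20.9 CPM in NF1 to NF3, against 19.8 and 20.3 CPM in HM2 and HM3 and 22.7, 17.3 and 16.8 CPM in HF1 to HF3. NM3 was the lowest library of all, and NF1 and NF2 were the highest. Its log2 fold change was -0.27 ± 0.18 (SE) over both sexes, -0.04 ± 0.27 in males and -0.50 ± 0.24 in females. Slc9a8 ranged from 18.2 to 24.3 CPM in normoxia (median 20.0, n = 6) and from 17.4 to 25.5 CPM in hyperoxia (median 19.9, n = 5). The log2 fold change of Slc9a8 was 0.01 ± 0.15 (SE). Slc9a9 ranged from 6.19 to 11.6 CPM in normoxia (median 8.90) and from 6.54 to 10.3 CPM in hyperoxia (median 7.89). That of Slc9a9 was -0.08 ± 0.20 (SE). Within groups, the SD of log2 CPM was 0.21 for Slc9a8, 0.36 for Slc9a9 and 0.32 for Slc9a7. Each SD was larger than the size of that gene's log2 fold change over both sexes. The SD describes single libraries, and the error of the fold change is the SE given above. For Slc9a7 in females alone the change (-0.50) was larger in size than the SD.

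Slc22a5, the carnitine importer, measured 6.03, 7.37 and 5.21 CPM in NM1 to NM3 and 5.22, 5.73 and 5.35 CPM in NF1 to NF3. After hyperoxia it measured 7.88 and 7.11 CPM in HM2 and HM3 and 6.93, 5.75 and 7.17 CPM in HF1 to HF3. The oxygen groups overlapped through NM2, which was the second highest library, and HF2. The log2 fold change was 0.28 ± 0.17 (SE) over both sexes. The ratio of Slc22a4 to Slc22a5 in CPM was 0.136 to 0.436 in the normoxia libraries and 0.455 to 0.753 in the hyperoxia libraries. The highest normoxia ratios were those of NF3 (0.436) and NM3 (0.356), and the lowest hyperoxia ratio was that of HM2 (0.455).

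Slc22a4 and Slc22a5 lie near each other on chromosome 11 with Slc22a21, the mouse gene of OCTN3, between them. Their promoters are shown because these neighbours differed in their hyperoxia values. A RefSeq promoter was at hand for 5 of the 6 genes, all but Slc9a4. Each sequence runs 5′ to 3′ on the gene's strand from 250 bases before the annotated start to 50 bases after it, on build GRCm38.p6, which is not the build of the counts (mm39). The Slc22a4 window is chr11:54028055-54028354 and the Slc22a5 window chr11:53891654-53891953, both on the minus strand, and capitals mark CACGTG, an E-box.
Slc22a4: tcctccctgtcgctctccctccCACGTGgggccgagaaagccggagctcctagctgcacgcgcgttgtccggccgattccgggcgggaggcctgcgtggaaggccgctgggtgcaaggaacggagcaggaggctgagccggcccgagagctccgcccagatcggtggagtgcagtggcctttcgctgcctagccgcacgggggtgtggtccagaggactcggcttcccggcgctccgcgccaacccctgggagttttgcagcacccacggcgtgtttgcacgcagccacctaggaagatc
Slc22a5: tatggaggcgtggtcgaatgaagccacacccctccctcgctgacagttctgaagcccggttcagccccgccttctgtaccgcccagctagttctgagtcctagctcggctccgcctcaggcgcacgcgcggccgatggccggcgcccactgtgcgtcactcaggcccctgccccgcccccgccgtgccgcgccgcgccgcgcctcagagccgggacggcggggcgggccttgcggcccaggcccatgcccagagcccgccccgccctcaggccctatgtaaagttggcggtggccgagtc

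Both windows are rich in G and C, at 69.0% for Slc22a4 and 72.7% for Slc22a5, where the median of 32851 RefSeq promoters is 52.7%. On either strand, the E-box CACGTG was found 1 time in the Slc22a4 window and 0 times in the windows of Slc22a5, Slc9a7, Slc9a8 and Slc9a9, and 7.15% of all promoters hold it. The GC box GGGCGG was found 2 times for Slc22a4 and 5 times for Slc22a5 (35.7% of promoters hold it). The RUNX core TGTGGT was found 1 time for Slc22a4 and 0 times for Slc22a5 (16.8%). The AP-1 motif TGANTCA (7.81%), the antioxidant element TGACNNNGC (12.4%) and the PU.1 core GAGGAA (28.3%) had no match in either window. These are matches of letters, and no binding was measured.

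None of the measured genes beside Slc22a4 or Slc9a4 passed the test. In order along chromosome 11, the measured protein-coding genes from Rad50 to P4ha2 were Rad50, Irf1, Slc22a5, Slc22a21, Slc22a4, Pdlim4 and P4ha2. Their log2 fold changes ± SE were 0.22 ± 0.21 for Rad50, a DNA repair gene, and 0.06 ± 0.18 for Irf1, an interferon-response transcription factor. Slc22a21 had 0.17 ± 0.40, Pdlim4 0.30 ± 0.71 and P4ha2, a collagen prolyl hydroxylase subunit, -0.70 ± 0.42 (adjusted p of 0.789 or more for all 5 by edgeR, quasi-likelihood). Around Slc9a4, the interleukin 18 receptor genes Il18r1 (0.54 ± 0.74) and Il18rap (0.65 ± 0.24) lay on one side and Slc9a2, another exchanger gene (-0.22 ± 0.42), and Mfsd9 (0.08 ± 0.20) on the other. Il18rap had an adjusted p of 0.361 in the same edgeR quasi-likelihood test, and the other 3 had 0.980 or more. Next to Slc9a9, Plscr4 was higher in all hyperoxia than in all normoxia libraries (0.96 ± 0.32) but did not pass (adjusted p = 0.260, edgeR quasi-likelihood).

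**Figure D2:**
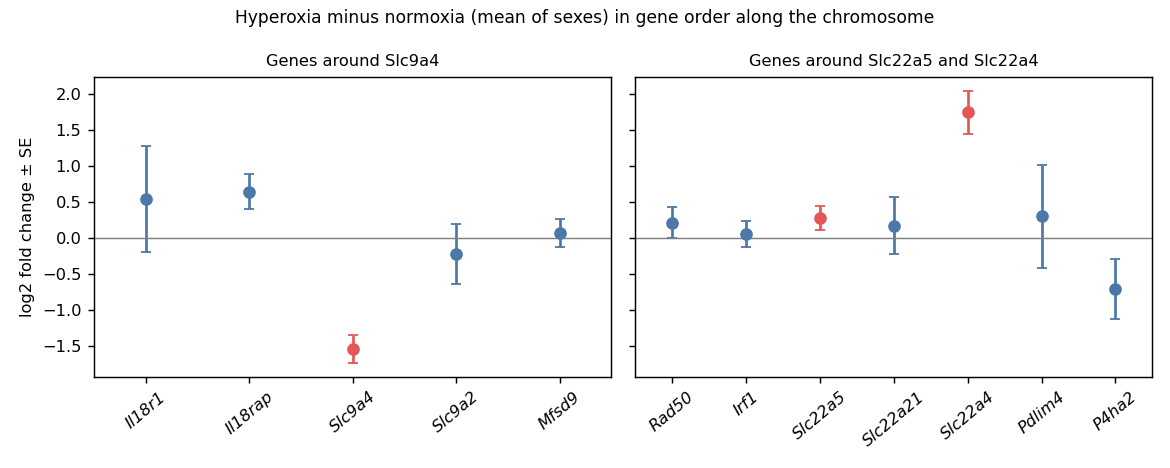
Log2 fold change of hyperoxia minus normoxia, mean of sexes, with its SE (vertical axis), for the measured protein-coding genes around Slc9a4 (left) and around Slc22a5 and Slc22a4 (right), in gene order on the horizontal axis, with the genes described in red. Slc9a4 (-1.53) and Slc22a4 (1.75), chosen with this contrast known, lie outside the range of the genes beside them, which run from -0.70 for P4ha2 to 0.65 for Il18rap.

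Of the 6 genes 4 share 50-base words with other genes, and Slc9a7 and Slc9a9 share none. In GENCODE M21 transcripts, 26.3% of the 50-base words of Slc22a5 also occur in other genes, nearly all of them in Slc22a21 (812 of 818 words). Reads of this pair can therefore be split between them, but Slc22a21 held 15 to 85 counts where Slc22a5 held 101 to 209. With both genes' counts summed, an alternative chosen after seeing the data, the log2 fold change was 0.26 ± 0.15 (SE) over both sexes. Slc22a4 shared 2.64% of its words and Slc9a8 0.191%. Slc9a4 shared 18.4%, 671 of 831 words with Gm37435, an unclassified transcript on the opposite strand that overlaps 764 of its 4562 exon bases. Gm37435 held 1 to 13 counts per library against 220 to 979 for Slc9a4. Whether the counting used strand is not given in the sources used here.

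Levels of different genes were compared as CPM per kilobase of exon, taking the exons of all GENCODE M21 transcripts of a gene together, which understates genes with many long transcripts such as Slc9a8 (9095 bases). Over the 6 normoxia libraries the medians were 6.28 for Slc9a7, 5.85 for Slc9a4, 2.20 for Slc9a8, 1.80 for Slc22a5, 1.57 for Slc9a9 and 0.415 for Slc22a4. The ranges of Slc9a7 and Slc9a4 overlapped, and Slc9a7 was the higher in 4 of 6 libraries. Slc9a4 lay above Slc9a8 in 6 of 6 libraries with no overlap of ranges, and the ranges of Slc9a8, Slc22a5 and Slc9a9 ran into each other. Slc22a4 lay under all of them, its highest normoxia value being 0.912 and the lowest of Slc9a9 1.09. In the 5 hyperoxia libraries the medians were 5.19 for Slc9a7, 2.32 for Slc22a5, 2.19 for Slc9a8, 1.86 for Slc9a4, 1.84 for Slc22a4 and 1.39 for Slc9a9. There Slc9a7 lay above the other 5 genes without overlap. Slc9a9 (1.15 to 1.82) lay under Slc22a5 (1.87 to 2.57) and Slc9a8 (1.91 to 2.80), and the ranges of all further pairs among those 5 overlapped. Slc9a4 was above Slc22a4 in 2 of 5 hyperoxia libraries.

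**Figure D3:**
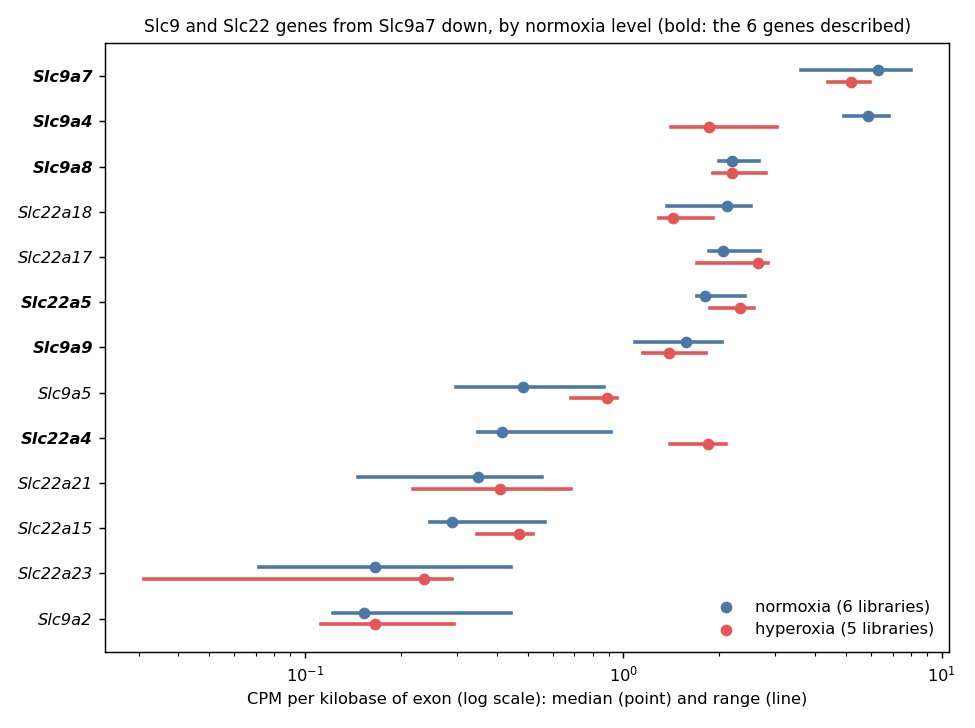
CPM per kilobase of exon on a log axis (horizontal), median as points and range over libraries as lines, for normoxia (6 libraries, blue) and hyperoxia (5 libraries, red), for Slc9 and Slc22 genes with a normoxia median from that of Slc9a7 down to 0.1, in order of the normoxia median. Slc9a4 and Slc22a4 are the 2 genes drawn whose blue and red ranges are separate with a gap, at medians of 5.85 and 1.86 and of 0.415 and 1.84.

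The other members of both families gave no call. Of 8 further Slc9 genes 5 passed the filter, 0 rose and 0 fell, and their median log2 fold change was 0.12, against -0.03 over all genes tested. The smallest p among them was that of Slc9a5, with 2.91 ± 1.09 CPM (SD, n = 6) in normoxia and 4.36 ± 0.5995 CPM (SD, n = 5) in hyperoxia. The log2 fold change of Slc9a5, 0.59 ± 0.26 (SE), did not pass (edgeR quasi-likelihood, Benjamini-Hochberg adjusted p = 0.560). Slc9a2 (-0.22) and Slc9b2 (0.12) had adjusted p of 0.994 or more in that test. Of 23 further Slc22 genes 9 passed the filter and again 0 rose and 0 fell, with a median of -0.05. Slc22a18 (-0.43 ± 0.23), Slc22a15 (0.36 ± 0.24), Slc22a17 (0.20 ± 0.16) and Slc22a7 (-0.70 ± 1.05) had edgeR quasi-likelihood adjusted p of 0.723 or more. The 17 genes of both families that did not pass the filter had 4 to 52 counts in all 11 libraries together.

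Proteins that bind or steer the exchangers gave 1 call. Scamp5, a secretory carrier membrane protein, rose, from 4.54 ± 0.646 CPM (SD, n = 6) to 8.09 ± 1.20 CPM (SD, n = 5). Its log2 fold change was 0.85 ± 0.18 (SE), with a Benjamini-Hochberg adjusted p of 0.0367 in the edgeR quasi-likelihood test, and all hyperoxia libraries lay above all normoxia libraries. The call was lost without any one of NM2, NM3, NF1, NF2, HM2, HM3, HF2 or HF3 (log2 fold changes of 0.78 to 0.88) and without NM3, NF3, HF2 and HF3 together (0.65, adjusted p = 0.350). The other 10 of 11 such genes did not pass. Among them were Ezr, the membrane-to-actin linker ezrin (-0.32), Scamp1 (0.22) and Chp2 (1.08 ± 1.01), which was near the floor.

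Genes of carnitine synthesis, transport and use also gave no call. Of 13 listed genes 12 were matched and 10 passed the filter, with 0 higher, 0 lower and a median log2 fold change of -0.05. Slc25a20, the carnitine-acylcarnitine carrier of the inner mitochondrial membrane, had the smallest p, with 37.4 ± 5.83 CPM (SD, n = 6) in normoxia and 30.9 ± 3.35 CPM (SD, n = 5) in hyperoxia. The difference was -0.26 ± 0.15 on the log2 scale (SE, edgeR quasi-likelihood adjusted p = 0.773). Cpt1a (-0.04) and Cpt2 (0.06), the carnitine palmitoyltransferases, lay near 0. The other carriers of organic cations and choline gave 0 calls among 7 tested of 10. The choline transporters Slc44a1 (0.45 ± 0.16) and Slc44a2 (0.38 ± 0.20) had adjusted p of 0.319 and 0.698 in edgeR's quasi-likelihood test.

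The proton pump that acidifies inner compartments likewise had no member past the test. Of 25 genes for V-ATPase subunits and organelle ion carriers, 19 had a log2 fold change under 0, with a median of -0.10. Over all genes tested, 45.9% had a log2 fold change over 0. All 25 were tested, and the lowest value was that of Atp6v1f (-0.57 ± 0.23, edgeR quasi-likelihood adjusted p = 0.447). Atp6v1c1 lay lower in all hyperoxia libraries than in all normoxia libraries, at 119 to 126 CPM against 142 to 183 CPM, and did not pass either (-0.36 ± 0.16, adjusted p = 0.573, same edgeR test). Of the other acid-base carriers and carbonic anhydrases 21 of 22 were tested, with 0 calls and a median of -0.18. Slc16a1, the lactate and proton carrier MCT1, measured 13.5 ± 3.42 CPM (SD, n = 6) in normoxia and 20.99 ± 3.09 CPM (SD, n = 5) in hyperoxia. The difference was 0.67 ± 0.18 on the log2 scale (SE, edgeR quasi-likelihood adjusted p = 0.116). The bicarbonate cotransporter Slc4a7 had 0.49 ± 0.16 (adjusted p = 0.266, same edgeR test). In all, 1 of 88 tested genes of these 7 lists passed (1.14%), beside 0.707% of all genes.

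**Figure D4:**
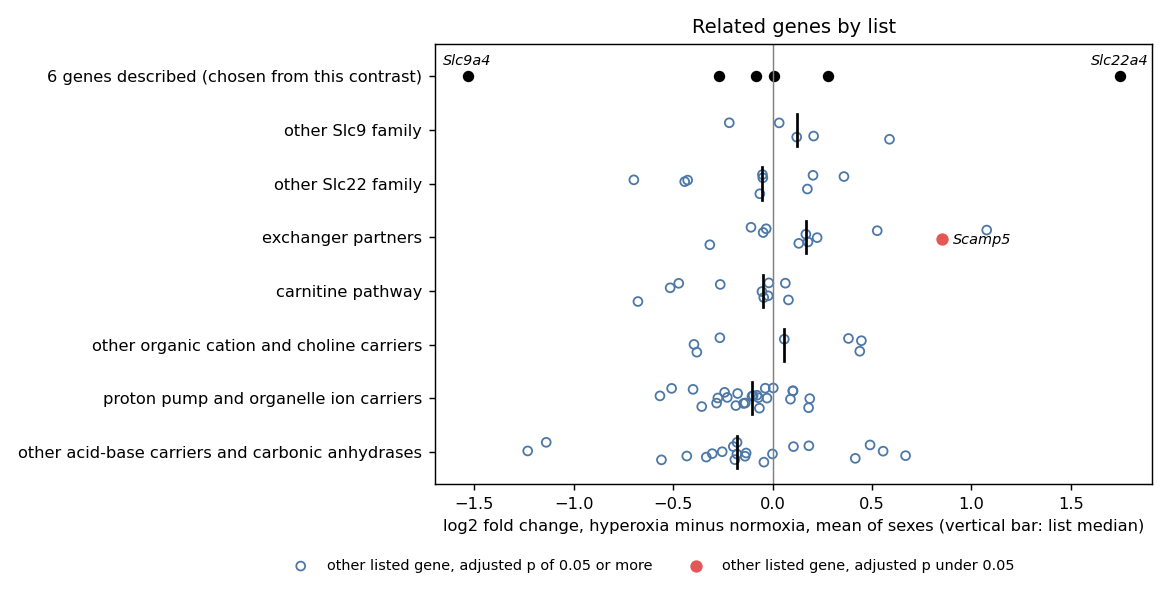
Log2 fold change of hyperoxia minus normoxia, mean of sexes (horizontal axis), for the 6 genes described (black, chosen from this contrast) and for the 88 tested genes of 7 lists (rows), with the list median as a vertical bar and the 1 gene with an adjusted p under 0.05 in red. Slc9a4 (-1.53) and Slc22a4 (1.75) lie outside the range of the listed genes, which runs from -1.23 to 1.08, and the list medians lie between -0.18 and 0.17.

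Sex was tested because the contrast of females and males did not choose the 6 genes. None differed between the sexes in edgeR's quasi-likelihood test, averaged over the oxygen groups, in which 5 of 19948 genes (0.0251%) were called. The female minus male log2 difference was 0.10 ± 0.19 (SE) for Slc9a4, with a 95% interval from -0.30 to 0.49, and 0.06 ± 0.30 for Slc22a4, with an interval from -0.58 to 0.69. For Slc9a7, which lies on the X chromosome, it was 0.15 ± 0.18, with an interval from -0.23 to 0.53. It was -0.14 ± 0.15 for Slc9a8, 0.08 ± 0.20 for Slc9a9 and -0.19 ± 0.17 for Slc22a5 (Benjamini-Hochberg adjusted p of 0.994 or more for all 6, edgeR quasi-likelihood). These p-values do not show that the sexes are alike, and the intervals give the differences that remain possible.

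The female response to hyperoxia minus the male response was tested in the same model, with 0 of 19948 genes called by edgeR (0%), 334 at an unadjusted p under 0.05 (1.67%) and 3 of 47547 called by DESeq2 (0.00631%). For Slc9a4 this difference was -0.13 ± 0.37 (SE), with a 95% interval from -0.92 to 0.66, and for Slc22a4 -0.01 ± 0.59, from -1.27 to 1.24. It was furthest from 0 for Slc9a7, at -0.46 ± 0.36 with an interval from -1.21 to 0.29. The values were -0.21 ± 0.31 for Slc9a8, -0.24 ± 0.40 for Slc9a9 and 0.01 ± 0.34 for Slc22a5, all with an edgeR quasi-likelihood adjusted p of 1. With 2 hyperoxia male libraries these intervals are wide. For Slc22a4 the interval includes a response from 1.27 lower to 1.24 higher on the log2 scale in females than in males.

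Markers of other cells were read beside these genes, since in bulk RNA fewer cells of a type and less RNA per cell cannot be told apart. The counts over 0 given here stand beside 45.9% over 0 among all genes tested. Of 8 monocyte markers, which include Ccr2 and Ly6c2, 7 had a log2 fold change over 0 and 0 passed, and none was at 0 counts throughout. They summed to 636 to 2430 CPM in normoxia and 1187 to 2351 CPM in hyperoxia. The highest monocyte sum was in NF1 (2430 CPM), which had the lowest Slc22a4 (0.891 CPM). The 6 interstitial macrophage markers summed to 12.1 to 25.4 CPM in normoxia and 20.3 to 62.6 CPM in hyperoxia, with HF2 highest, and the 5 tested were all over 0 with 0 calls (median log2 fold change 0.71). Erythroid markers, 6 of 6 under 0 with 0 calls, summed to 101 to 1200 CPM in normoxia and 52.2 to 302 CPM in hyperoxia. Of 6 neutrophil markers tested 4 were over 0 and 2 under 0. Mmp8, a collagenase, rose (1.08 ± 0.22, adjusted p = 0.0299, edgeR quasi-likelihood). The 2 under 0 were Csf3r (-1.02 ± 0.26, adjusted p = 0.0897, same edgeR test) and Mmp9 (-0.64 ± 0.75), and neither passed. Ly6g was at 0 in all libraries, and the neutrophil list summed to 40.2 to 73.4 CPM in normoxia and 48.6 to 58.2 CPM in hyperoxia. No marker of dendritic, T and NK, B, epithelial, endothelial or mesenchymal cells passed. Their log2 fold changes were over 0 for 5 of 6 dendritic, 4 of 4 T and NK, 3 of 5 B, 6 of 8 epithelial, 0 of 7 endothelial (median -0.74) and 1 of 6 mesenchymal markers tested. The highest sum of these was 148 CPM, for epithelium in hyperoxia. The part of these cells in the Slc22a4 values was not tested. The alveolar macrophage sum was lowest in NM3 (4979 CPM), where Slc9a4 measured 22.4 CPM, and its part in the Slc9a4 values was not tested.

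Genes whose pattern was most like each of the 6 were looked up as those of highest Pearson correlation of log2 CPM over the 11 libraries, among 11092 genes with a symbol and a mean log2 CPM of at least 1. The libraries share their oxygen group and depth, so these correlations are descriptions. Slc9a4 was most like Cidec, a lipid droplet protein that is also on the alveolar macrophage list (r = 0.981), Patj, a polarity scaffold (0.975), and Leng9 (0.969). Cidec averaged 118 CPM in normoxia and 46.3 CPM in hyperoxia, and Patj 31.1 and 7.41 CPM. Slc22a4 was most like Tbc1d19 (0.944), Tnfaip8l1 (0.925) and AC132253.6 (0.922), and their log2 fold changes of 0.49, 0.95 and 1.20 were smaller than its own. Slc9a7 was most like Slc6a4, the serotonin transporter (0.986), Nceh1, a cholesterol ester hydrolase (0.980), and Cd44, the hyaluronan receptor (0.977), none of which changed by more than 0.32 on the log2 scale. Slc9a8 was most like the splicing factor Srsf6 (0.900), Clk3 (0.887) and Fastk (0.880). For Slc9a9 these were Plekha1 (0.981), Pgap1 (0.956) and Esyt2 (0.952), and for Slc22a5 Wdpcp (0.931), Usp3 (0.874) and Prss30 (0.866).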

How the data were processed

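The deposited table holds whole-number read counts per Ensembl gene for 11 libraries, not normalized. Per the labels' protocols, the first 8 bases, which are molecular identifiers, and the adapter were trimmed, and libraries the labels call Novg were cleared of fragments under 250 bp and resequenced. The submitters' processing notes name build mm39, STAR 2.7.9, DESeq2 1.42, Trim Galore 0.6.7, R 4.3.2 and Salmon 1.10.1. Not given in the sources used here are the roles of these tools, the annotation, strand and any removal of duplicates by the identifiers. Symbols were found for 51884 of 57180 identifiers (90.7%).

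The analysis used edgeR 4.0.16 under R 4.3.3 (filterByExpr with a minimum count of 10 and total of 15, TMM, 1 mean per group, robust quasi-likelihood F test, Benjamini-Hochberg adjustment over 19948 genes). SEs were derived from the F statistic, and limits that a count of 0 allows use 3 counts and cover counting error only. The fit was tested on simulated data. Likeness used log2 CPM with a prior count of 2. Exon lengths and shared words come from GENCODE M21 and gene order and promoters from RefSeq, both of build GRCm38. Deviations of same-numbered normoxia and hyperoxia females correlated at 0.112, 0.264 and 0.615, and those of the males at -0.344 and -0.073. Deviations of HM2 and HM3 from their group mean are equal and opposite by construction, so their correlations with any library differ only in sign. Of differently numbered females, NF1 with HF2 (0.216) and NF2 with HF1 (0.327) reached similar values, and the others ran from -0.581 to -0.302. A pairing by number is therefore not shown by these values, and the labels give none. Replicates within each group all differed beyond sampling noise (chi-square per gene of 18.1 or more).

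The 6 genes, the lists and the tests were chosen with earlier results of these data known. Named genes are the 6, up to 4 of smallest p per list, up to 2 measured neighbours a side and the 3 genes most like each; values of some listed genes are not reported here. Alternatives were DESeq2 1.42.0 and its size factors, other filters, a replicate block, and libraries left out.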

Additional observations from a re-analysis of the deposited data

How the results depend on the processing

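There were 185 values of the 6 genes under the alternatives that do not leave out a single library. Of these, 177 were unchanged by the rule for their comparison. A hyperoxia value counted as unchanged if it moved by less than the gene's within-group SD of log2 CPM. A sex or response difference counted as unchanged if it kept its direction. In the comparison over both sexes the log2 fold changes of Slc9a4 and Slc22a4 moved by less than that SD under all these alternatives. In females alone they moved to -1.10 and 2.34 without NM3, NF3, HF2 and HF3. Values close to 0 changed sign. Among hyperoxia values that counted as unchanged, Slc9a8 over both sexes (0.0058) became -0.0222 with DESeq2 size factors and -0.0307 with the stricter filter. In males, Slc9a9 (0.0404) became -0.0179 with the stricter filter, and Slc9a7 (-0.0402) became 0.1001 with the replicate block. The response difference between the sexes became -0.0245 for Slc22a5 with no filter. For Slc22a4 it became 0.0781 with the stricter filter, 0.18 with the replicate block and 0.27 without those 4 libraries, where that of Slc9a4 became 0.45 and the female minus male difference of Slc22a4 became -0.0663. None of these sex and response differences passed a test, and the cause of the shifts was not tested.

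Counts of genes called moved more. For hyperoxia over both sexes (141) the count was 302 with no filter, 288 with the stricter filter (at least 1 CPM in 3 libraries), 429 with DESeq2, 256 with the replicate block and 23 without the 4 libraries. In males (8) it was 83, 13, 83, 21 and 16 in that order. In females (8) it was 96 with no filter, 84 with DESeq2, 23 with the replicate block and 2 without the 4 libraries. For female minus male (5) it was 62, 39 and 9 with no filter, DESeq2 and the replicate block. For the response difference (0) it was 6 with no filter, 3 with DESeq2 and 1 without the 4 libraries. With each library left out in turn the counts ran from 36 (without HM3) to 195 over both sexes, 0 to 19 in males, 0 to 24 in females, 5 to 14 for female minus male and 0 to 1 for the response difference.

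The labels give groups the same replicate numbers and no reason to pair them. Over all 15 same-numbered pairs the correlation of deviations ran from -0.358 to 0.615, with 7 over 0.1, and 6 of 11 libraries correlated best with their own number. The 30 differently numbered pairs ran from -0.646 to 0.43. All 3 same-numbered pairs of normoxia and hyperoxia females were over 0.1, and both such male pairs were under 0. HM2 and HM3 deviate from their group mean equally and oppositely by construction, so the male pairs are not independent of each other. NF1 with HF2 (0.216) and NF2 with HF1 (0.327) were also over 0.1, so a pairing by number is not shown. The replicate block was a term shared by all 11 libraries. With single libraries left out, log2 fold changes over both sexes ran from -0.39 to -0.17 for Slc9a7, -0.08 to 0.10 for Slc9a8, -0.26 to 0.07 for Slc9a9, 1.60 to 2.03 for Slc22a4 and 0.22 to 0.35 for Slc22a5. Female minus male ranged from -0.10 to 0.20 for Slc9a4, -0.0561 to 0.27 for Slc9a9 and -0.24 to 0.23 for Slc22a4. The response difference ranged from -0.53 to 0.08 for Slc9a4, -0.56 to 0.10 for Slc9a9, -0.36 to 0.57 for Slc22a4 and -0.13 to 0.11 for Slc22a5. The counts of Slc22a4 in normoxia were low (21 to 54), which limits its precision.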
